A study of Mus musculus with 8 samples.

Results

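The ADAM and ADAMTS proteinases form a family of zinc metalloproteinases that cut proteins at the cell surface and in the extracellular matrix. The members were taken by symbol: every gene in the files named Adam, Adamts or Adamtsl followed by a number and, for some ADAMs, a letter. This gave 57 of the 31053 genes in the files, of which 33 are ADAM, 19 are ADAMTS and 5 are ADAMTSL genes, and each of them is listed in all 8 libraries.

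Single-cell libraries were made from dorsal skin of female BALB/c mice aged 14 to 16 weeks, 4 after injection of PBMCsec and 4 after injection of vehicle. PBMCsec is the secretome of irradiated human peripheral blood mononuclear cells, and the study asked how it changes scars. The study treated wounds and scars topically or by injection into the dermis, with medium or NaCl as controls, whereas the series' design text names a subcutaneous injection and the labels give neither wounding, time point nor control solution. The labels number the libraries 1 to 4 in each group and do not say whether each came from 1 mouse, so that p-values measure the spread between these libraries.

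ADAMs are anchored in the membrane, and several of them, above all ADAM10 and ADAM17, release the outer part of growth factors, cytokine receptors, Notch and cadherins. ADAMTS proteinases are secreted and bind matrix through thrombospondin repeats: one group trims versican and aggrecan, and another removes the amino-terminal propeptide of fibrillar procollagens, without which the dermis is fragile. ADAMTSL proteins share these repeats but lack the proteinase domain, and several bind fibrillin microfibrils. Other ADAMs have lost the active site and serve in adhesion, and many are known from testis and sperm.

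The promoters of the members fell into very different sequence types, and 5 are shown to make this visible. Each run holds 300 bases from 250 before to 50 after the start of the RefSeq transcript (GRCm38.p6), and capitals mark CpG dinucleotides. Adamts2 (chr11:50601835-50602134, plus strand) and Adamts1 (chr16:85803064-85803363, minus strand) stand for secreted members of fibroblasts. Adam10 (chr9:70678732-70679031, plus strand) stands for a member counted in all classes, Adam8 (chr7:139992513-139992812, minus strand) for a member of leukocytes, and Adam21 (chr12:81568425-81568724, minus strand) for those without a count in skin.
Adamts2: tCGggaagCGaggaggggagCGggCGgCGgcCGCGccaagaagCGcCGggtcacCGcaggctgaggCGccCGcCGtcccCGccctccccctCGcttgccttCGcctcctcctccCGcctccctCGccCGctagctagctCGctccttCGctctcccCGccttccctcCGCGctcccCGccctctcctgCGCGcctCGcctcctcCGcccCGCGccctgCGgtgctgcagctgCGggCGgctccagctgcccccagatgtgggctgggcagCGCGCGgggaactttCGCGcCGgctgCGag
Adamts1: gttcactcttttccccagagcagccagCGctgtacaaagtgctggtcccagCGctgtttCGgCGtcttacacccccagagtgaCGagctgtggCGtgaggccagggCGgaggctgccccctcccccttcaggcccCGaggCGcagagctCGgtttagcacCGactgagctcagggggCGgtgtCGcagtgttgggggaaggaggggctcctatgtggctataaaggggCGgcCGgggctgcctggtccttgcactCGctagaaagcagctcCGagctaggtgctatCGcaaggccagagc
Adam10: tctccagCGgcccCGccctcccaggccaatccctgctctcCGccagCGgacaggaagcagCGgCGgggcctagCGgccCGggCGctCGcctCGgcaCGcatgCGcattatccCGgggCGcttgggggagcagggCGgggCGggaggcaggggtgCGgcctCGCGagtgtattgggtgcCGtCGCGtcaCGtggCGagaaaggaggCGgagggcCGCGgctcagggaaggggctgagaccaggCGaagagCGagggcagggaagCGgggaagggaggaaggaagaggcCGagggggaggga
Adam8: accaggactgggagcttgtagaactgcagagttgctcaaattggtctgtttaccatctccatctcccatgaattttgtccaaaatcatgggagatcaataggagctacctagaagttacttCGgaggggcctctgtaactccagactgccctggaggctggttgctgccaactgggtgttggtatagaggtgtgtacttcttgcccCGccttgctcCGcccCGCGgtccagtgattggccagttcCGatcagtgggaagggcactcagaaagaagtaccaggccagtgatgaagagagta
Adam21: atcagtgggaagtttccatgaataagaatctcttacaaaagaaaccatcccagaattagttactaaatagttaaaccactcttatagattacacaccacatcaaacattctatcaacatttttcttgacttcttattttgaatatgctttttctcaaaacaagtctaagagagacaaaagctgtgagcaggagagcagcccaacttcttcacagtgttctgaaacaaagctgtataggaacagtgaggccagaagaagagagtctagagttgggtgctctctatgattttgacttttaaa
The Adamts2 promoter held 41 CpG, that of Adam10 32, that of Adamts1 18, that of Adam8 6 and that of Adam21 0.

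RefSeq promoters were matched for 31 of the 57 members, 33 promoters in all, since Adam19 has several starts. Their median was 11 CpG, against 7 over all 32817 promoters of the same length. The 21 promoters of members with more than 50 unique molecular identifiers (UMIs, each standing for 1 captured transcript) in the kept cells had a median of 25 CpG. The 12 promoters of members with 50 UMIs or fewer had a median of 1 CpG. On either strand, the TATA motif TATAAA was found in 15.2% of the members' promoters and 13.6% of all promoters, and Adamts1 was among those that hold it. The AP-1 motif TGANTCA was found in 15.2% and 7.81%, the GC box GGGCGG in 51.5% and 35.6%, and the CCAAT box (CCAAT) in 39.4% and 37.4%. The members' promoters with TGANTCA were a start of Adam19 and those of Adam1b, Adam20, Adam25 and Adam29, which had 0 UMIs in the kept cells. These shares describe the letters of the window and were not tested.

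**Figure D1:**
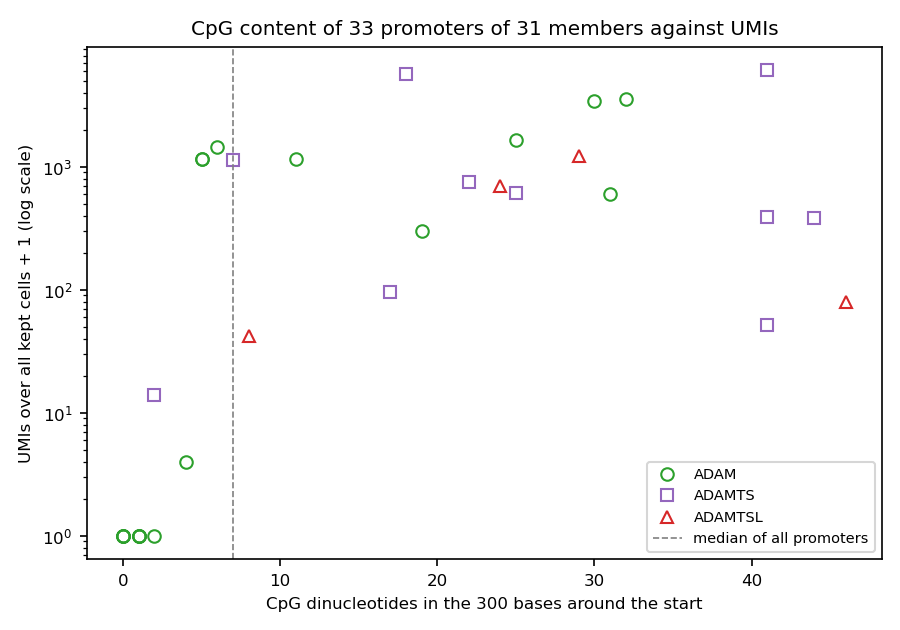
CpG dinucleotides in each of 33 promoters (x axis, count in 300 bases) against the UMIs of the gene over all kept cells plus 1 (y axis, log scale), by subfamily. The dashed line is the median of all promoters, 7. The members at 0 UMIs lie at the left, while Adam8 and Adam19 have many UMIs with few CpG.

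In the genome, 26 of the 57 members lay in 10 blocks of neighbours no further than 250000 bases apart (GENCODE M21, GRCm38), and all 57 are annotated as protein-coding. Adamts1 and Adamts5, which both cut versican, sit side by side at chr16:85793827-85901828. Both were among the members with most UMIs in fibroblasts. Adam18, Adam3, Adam5, Adam32 and Adam9 lie together at chr8:24602246-25016927, and of these Adam9 alone had more than 50 UMIs. The blocks Adam24, Adam25, Adam20 and Adam39 (chr8:40675077-40827037) and Adam26b, Adam26a and Adam34 (chr8:43519762-43710049) had 0 UMIs. Several of these are related copies, as are Adam1a with Adam1b and Adam6a with Adam6b, and their transcripts were not compared here. Reads that match more than 1 gene are not counted by Cell Ranger, so a count of 0 is uncertain where copies are near-identical.

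Libraries held 14753926 to 37880651 UMIs over all barcodes. The study's filter on genes detected (500 to 4000), UMIs (20000 or fewer) and the mitochondrial share (5% or less) kept 6150 of 26231 barcodes. The mitochondrial limit was exceeded by 16900 barcodes. Kept cells held 48060 of the family's 170504 UMIs, and the levels and shares given here refer to these cells. PBMCsec libraries had 313 to 1515 kept cells, vehicle libraries 151 to 1659, and vehicle libraries 1 and 2 were the smallest. Any pair of libraries shared 0 to 10 barcodes and at most 2 kept ones. The members were left out when cells were clustered. Markers gave names to 31 of the 35 clusters: fibroblast-like cells (FBs, 1360), hair follicle-like cells (HFs, 1629), keratinocyte-like cells (KCs, 924), T cell-like cells (TCs, 837), macrophage and dendritic cell-like cells (DCs, 518), neutrophil-like cells (117), endothelial-like cells (ECs, 83), pericyte-like cells (PCs, 38) and mast cell-like cells (28). The remaining 4 clusters (616 cells) were left unnamed. One TC cluster, led by Csf2, Arg1, Il13 and Il1rl1, held none of the T cell markers among its 10 leading genes.

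Of the 57 members, 16 had 0 UMIs in the 6150 cells, and all of these were ADAMs. A further 11 had 3 to 45 UMIs, and 9 had 51 to 393 UMIs but a mean under 20 CPM (counts scaled to 1000000 UMIs per class and library) in each class with a test of treatment. The other 21 members had 499 to 10855 UMIs and are described by name: 9 ADAMs, 9 ADAMTS and 3 ADAMTSL genes. FBs were 22.1% of the kept cells and held 24.5% of all UMIs in them, but 66.0% of the family's UMIs in them. Adamts5 made up 31% of the family's UMIs in FBs. CPM are given per class and library without division by gene length, since UMIs mark the 3′ end of transcripts, and levels are therefore set side by side between classes and not between genes.

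**Figure D2:**
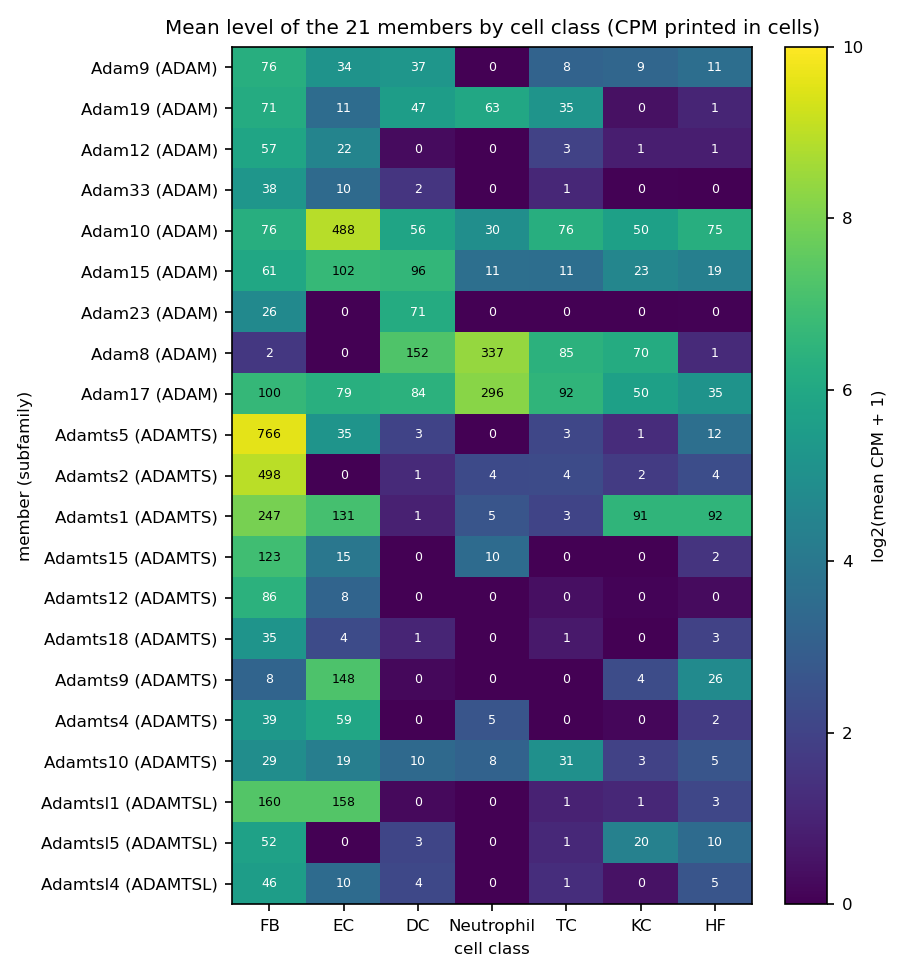
Mean CPM of the 21 named members (rows, with subfamily) in 7 cell classes (columns), averaged over the libraries with at least 10 cells of a class. Colour gives log2(mean CPM + 1). Most ADAMTS and ADAMTSL rows peak in FBs, Adam10 and Adamts9 in ECs, Adam8 and Adam17 in neutrophils, and Adam23 in DCs.

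Among the 7 classes compared, FBs were the one in which most members stood highest. Of 22 members with enough UMIs for the comparison of classes, 10 were higher in FBs than in each of the other 6 classes, with edgeR's quasi-likelihood test at an adjusted p under 0.05 in every pair. The same held for 8.66% of the 10264 genes tested. These 10 were Adamts1, Adamts2, Adamts5, Adamts12, Adamts15, Adamtsl4, Adamtsl5, Adam9, Adam12 and Adam33. By the same rule 2 members stood highest in ECs, Adam10 and Adamts9 (3.97% of all genes), 1 each in DCs (Adam23, 3.98%), neutrophils (Adam17, 4.03%) and KCs (Adamts14, 6.33%), and 0 in HFs (3.04%) and TCs (4.73%). Against the mean of the other classes, 20 of 22 members were higher in FBs, where 41.0% of all genes were. The counts for the remaining classes were 11 in ECs (19.3% of all genes), 5 in DCs (33.7%), 4 in KCs (38.2%), 4 in TCs (32.9%), 3 in HFs (39.1%) and 3 in neutrophils (10.8%). Without the 5% of cells with the highest doublet scores, 9 members were called in ECs (1529 of 10491 genes). Adamts1 and Adamts4 were then no longer among them. With mitochondrial UMIs limited to 2.5%, which left 1085 cells, 5 of the 8 members still tested were called higher in FBs, against 34% of 3615 genes. The minimum of 10 cells per sum was not set again there, and 11 ECs were left, so that sums of fewer cells could enter.

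The proteinases that trim versican and aggrecan were led by Adamts5, the main aggrecanase of cartilage. Its CPM in FBs ran over the 8 libraries from 427 through a median of 846 to 1124. ECs followed with 34.7 ± 37.7 CPM (SD, n = 6), and HFs with 11.7 ± 10.7 (n = 8), so that the lowest FB library lay above the highest library of the other 6 classes compared. FBs exceeded ECs by 5.01 on the log2 scale (edgeR, adjusted p = 2.9e-15). A UMI of Adamts5 was found in 89.6% of FBs (95% exact Clopper-Pearson interval 87.8% to 91.1%, counting error only), or in 49.4% when each cell was thinned to 1000 UMIs. KCs, with more UMIs per cell (median 11009 against 9291 in FBs), held one in 1.19% and TCs (median 3365) in 0.956%. HFs held one in 6.63% and DCs in 1.54%. Whether these UMIs are background was not tested.

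Adamts1, which also cuts versican, was spread more widely. FBs had a lowest of 159, a median of 251 and a highest of 364 CPM, ECs had 131 ± 155 (SD, n = 6), HFs 92.1 ± 42.4 and KCs 91.1 ± 68.9 (n = 8). All FB libraries lay above those of HFs and overlapped those of ECs and KCs. FBs were higher than each of the other 6 classes compared (largest adjusted p = 0.00226). PCs had too few cells per library for this comparison. Pooled over the 38 PCs, the CPM of Adamts1 lay above the highest FB library, as given under Other observations. In DCs and TCs the mean of Adamts1 was 0.906 and 3.20 CPM. No difference was shown between HFs and KCs (adjusted p = 0.274) or between ECs and HFs (adjusted p = 0.687).

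Adamts15 and Adamts4, 2 more members of the same group, were less even. Adamts15 had a lowest of 30.7, a median of 54.4 and a highest of 346 CPM in FBs, 14.7 ± 18.2 in ECs, and a mean of 0 in DCs, KCs and TCs. A count of 0 allows up to 3 UMIs over the class, or 0.763, 0.298 and 0.892 CPM there. Adamts4, an aggrecanase, had 58.9 ± 105 CPM in ECs and 39.0 ± 38.0 in FBs, with no difference shown (adjusted p = 0.934). In vehicle library 2, 20 of the 21 UMIs of Adamts4 in FBs came from 1 cell. Adamts9, which trims versican and takes part in vessel development, was highest in ECs, with 20.5 to 408 CPM over 6 libraries and a median of 72.3. HFs came next at 26.5 ± 21.1 and FBs at 8.24 ± 3.01, and ECs were higher than HFs (adjusted p = 1.3e-05).

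Adamts2, the procollagen I and III N-proteinase, was close to absent from the other 6 classes compared. Its lowest, median and highest FB libraries had 385, 494 and 666 CPM, while the mean elsewhere lay between 0 in ECs and 4.18 in HFs. FBs with a UMI made up 88.2% (86.3% to 89.8%), or 32.6% at 1000 UMIs. In KCs and TCs 1.30% and 1.43% of cells held one. Of the 38 PCs, which had too few cells per library for the comparison of classes, 50% held one, or 19.4% at 1000 UMIs. Its relatives were counted less and elsewhere. Adamts14, a second procollagen N-proteinase that fell just under the 20 CPM required of named members and was singled out after its values were seen, had 19.9 ± 7.51 CPM in KCs and 16.6 ± 13.9 in FBs. It was the only member tested that was higher in KCs than in each other class (adjusted p = 0.0155 against FBs), where 6.33% of all genes were. Adamts3, the third of this group, had 51 UMIs in all cells.

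Further secreted members were found in FBs. Adamts12, which binds cartilage oligomeric matrix protein, had a lowest of 30.1, a median of 76.9 and a highest of 155 CPM, and Adamts18 had a lowest of 0, a median of 27.4 and a highest of 109. In ECs, which had the next mean among the 7 classes compared, they had 8.37 ± 6.65 and 3.91 ± 6.06. PCs were outside this comparison. Pooled over the 38 PCs, the CPM of Adamts12 lay above the highest FB library, as given under Other observations. Adamts10, which binds fibrillin, was shared by TCs with 31.2 ± 9.45 CPM and FBs with 29.2 ± 12.4, with no difference shown (adjusted p = 0.715).

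The ADAMTSL genes followed the matrix pattern too. Adamtsl1 had 160.2 ± 46.3 CPM in FBs and 158 ± 94.1 in ECs (adjusted p = 0.123), with a mean of at most 3.36 in any other class. Adamtsl4, a fibrillin-binding protein, had 46.1 ± 21.6 in FBs and 10.2 ± 13.6 in ECs (adjusted p = 0.00084). Adamtsl5 had 52.1 ± 18.9 in FBs, 19.8 ± 8.28 in KCs and 10.4 ± 6.13 in HFs, and FBs were higher than KCs (adjusted p = 9.2e-07). KCs were higher than HFs in turn (adjusted p = 4.6e-06).

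Adam10 and Adam17, the main sheddases, were counted in every class, yet each had 1 class above all others. Adam10 had 288, 417 and 775 CPM in the lowest, median and highest of 6 EC libraries. Its mean was 76.1 in FBs, 75.7 in TCs, 75.4 in HFs, 55.8 in DCs, 50.5 in KCs and 29.8 in neutrophils. The lowest EC library lay above all libraries of the other classes, whose highest was 124 in FBs, and the difference from FBs was 2.34 on the log2 scale (adjusted p = 1.8e-16). FBs, TCs and HFs stood next to each other with no difference shown between FBs and either (adjusted p = 0.878 and 0.42). ECs with a UMI made up 85.5% (76.1% to 92.3%, 83 cells), or 34.2% at 1000 UMIs, against 6.64% of thinned FBs.

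Adam17, which releases tumour necrosis factor and ligands of the epidermal growth factor receptor, was highest in neutrophils. The neutrophils of PBMCsec libraries 1, 2 and 4 and vehicle library 2, the libraries with at least 10 of them, had 359.7, 295, 406 and 123 CPM. FBs had 100.2 ± 35.7, TCs 91.7 ± 31.1, DCs 83.8 ± 17.4, ECs 78.6 ± 28.9, KCs 50 ± 8.25 and HFs 34.7 ± 11.6. The vehicle library overlapped FBs, while the 3 PBMCsec libraries lay above all others, and neutrophils were higher than FBs by 1.32 on the log2 scale (adjusted p = 0.00039). These 4 libraries held 171592 UMIs in neutrophils, and 3 of the 4 were PBMCsec libraries, so that class and treatment are not balanced there. At 1000 UMIs per cell, 23.4% of neutrophils and 9.51% of FBs held a UMI.

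**Figure D3:**
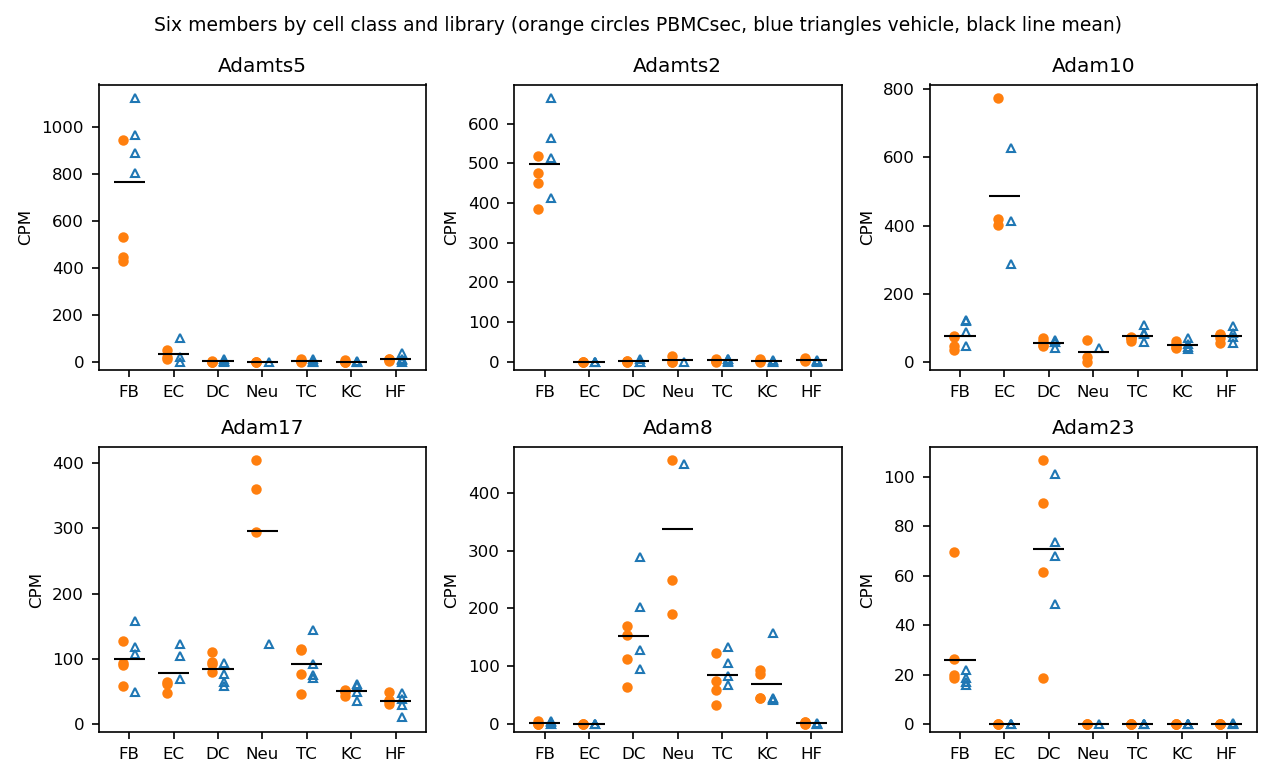
CPM per library (y axis) of 6 members in 7 cell classes (x axis, Neu for neutrophils), with PBMCsec libraries as filled circles, vehicle libraries as open triangles and the mean as a line. Libraries with under 10 cells of a class are not drawn. All libraries of FBs for Adamts5 and Adamts2 and of ECs for Adam10 lie above the other classes, while the highest classes of Adam17, Adam8 (neutrophils) and Adam23 (DCs) overlap another class.

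Adam8 and Adam23 stood highest in leukocyte classes. Adam8, a sheddase of myeloid cells, had 190.4, 457, 249.5 and 451 CPM in the 4 neutrophil sums, and 152 ± 70.4 in DCs, 85.2 ± 33.4 in TCs and 69.6 ± 41.2 in KCs (SD, n = 8). Between neutrophils and DCs no difference was shown (adjusted p = 0.253). FBs, HFs and ECs lay at 2.07, 1.30 and 0 CPM. The share of thinned cells with a UMI was 30.6% in neutrophils, 10.2% in DCs, 7.84% in TCs, 4.71% in KCs and 0.147% in FBs. Within KCs, Adam8 had 133 CPM in the cluster led by Serpinb2, Fosl1 and Krt16, 41.4 in the cluster with Krt14 among its leading genes and 9.82 in the cluster led by Krt1 and Krt10.

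Adam23, an ADAM without an active site, was found in DCs and FBs, with a mean of 0.0479 CPM in HFs and 0 elsewhere. DCs had a lowest of 18.6, a median of 70.7 and a highest of 107 CPM and FBs a lowest of 15.9, a median of 19.4 and a highest of 69.8, and DCs were higher (adjusted p = 1.6e-05). KCs, TCs, ECs and neutrophils had 0 UMIs, which allows up to 0.298, 0.892, 6.52 and 17.5 CPM. Among DCs it had 113 CPM in the cluster led by Cd209a and Mgl2, 92.9 in that led by Cd207, and 0.999 in that led by C1qa, C1qb and C1qc.

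Adam15, Adam19 and Adam9 were shared between FBs and DCs, with Adam19 in neutrophils and TCs as well. Adam15 had 102 ± 55.0 CPM in ECs, 96.5 ± 32.7 in DCs and 61.4 ± 17.2 in FBs, with no difference shown between ECs and DCs (adjusted p = 0.311) and DCs higher than FBs (adjusted p = 0.00061). Adam19, which sheds neuregulins, had 70.7 ± 29.4 in FBs, 63.4 ± 49.7 in neutrophils (n = 4), 46.6 ± 15.5 in DCs and 34.7 ± 13.7 in TCs, and a mean of 1.05 in HFs and 0.363 in KCs. No difference of FBs from DCs or neutrophils was shown (adjusted p = 0.0638 and 0.468). Adam9 had 76.5 ± 12.4 in FBs and 37.2 ± 9.22 in DCs (adjusted p = 2.3e-05). It had 33.8 ± 22.7 in ECs, and at most 11.1 on average in HFs, KCs, TCs and neutrophils. Adam12, known from mesenchymal cells, and Adam33 had 57.5 ± 26.1 and 37.5 ± 32.0 in FBs and 21.7 ± 12.5 and 10 ± 8.35 in ECs, with FBs higher (adjusted p = 0.00915 and 0.00818).

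Members also divided the 6 FB clusters between them, given here as pooled CPM over cells with no test, since cells of one library share their source. Adamts5 lay between 268 CPM in the cluster led by Mfap4, Cyp26b1 and Cpz (142 cells) and 1097 in the cluster with Pi16 among its leading genes (221 cells). Adamts2 ran from 227 in the cluster led by Ptx3 and Ccl2 (103 cells) to 780.0 in the Mfap4 cluster, which also had Col1a1 and Col1a2 among its leading genes. Adamts1 and Adamts4 both peaked in the Ptx3 cluster, at 697 and 93.5 CPM, where the other clusters had at most 266 and 51.6. That cluster has the chemokines Ccl2, Ccl7, Cxcl1 and Cxcl2 and the cytokine Il6 as leading genes, and 54.4% of its cells came from 1 library.

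The cluster led by Peg3, with Cxcl12, Lepr and Postn (170 cells), held 482 UMIs of Adamts18, where the other 5 FB clusters held 0 to 20 each. It had 303 CPM there and at most 14.5 in the other FB clusters, and Adamts18 is itself among the 10 leading genes of this cluster, which was formed without it. Adam12 and Adamts12 had 165 and 152 CPM in it, and at most 67.9 and 85.7 in the others. Adam33 peaked in the cluster led by Hmcn2, Angptl1 and Mgp (236 cells), at 87.4 against at most 33.1. Adamts15 and Adamtsl4 peaked in the Pi16 cluster, at 116 and 91.2. Adam9 and Adam15, in contrast, varied little, with 51.7 to 82.4 and 48.4 to 54.1 CPM. An unnamed cluster led by Ednrb, Wif1, Col11a1 and Crabp1 (198 cells) lay outside the FBs and held 446 CPM of Adamts5, 149.5 of Adamts2 and 146 of Adamts18.

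**Figure D4:**
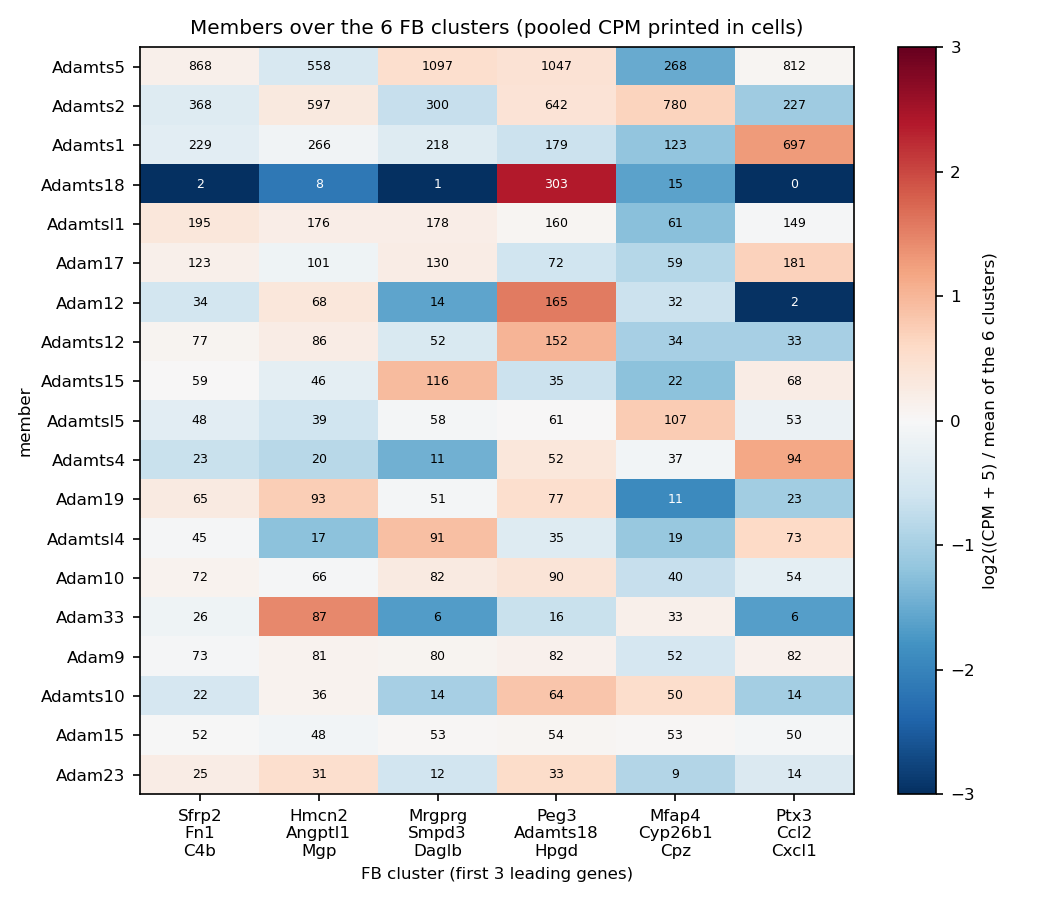
Pooled CPM (printed) of 19 members with at least 20 CPM in FBs (rows) in the 6 FB clusters (columns, named by their first 3 leading genes). Colour gives log2 of CPM plus 5 over the mean of the 6 clusters, red above and blue below. Adamts18 stands out in the Peg3 cluster, Adamts1 in the Ptx3 cluster and Adam33 in the Hmcn2 cluster.

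Partners of the family were described from lists of inhibitors, sheddase partners, convertases and substrates, for which classes were not tested. Of the inhibitors, Timp2 was at 2266 ± 593 CPM in FBs and 813 ± 305 in ECs. Timp3, which inhibits ADAM17 and several ADAMTS proteinases, was at 1778 ± 589 in ECs, 751 ± 127 in FBs and 529 ± 217 in HFs, and Timp1 at 179 ± 293 in FBs. FBs thus held these inhibitors beside the secreted proteinases. Tspan5 and Tspan14, tetraspanins that accompany ADAM10, were at 102 ± 52.9 and 81.2 ± 30.8 in ECs, and Mapk14, a kinase upstream of ADAM17, at 82.1 ± 64.6 in neutrophils.

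Convertases remove the inhibitory prodomain of these proteinases. Furin was at 484 ± 225 CPM in TCs and 42.6 ± 12.4 in FBs, Pcsk6 at 284 ± 188 in ECs and 100.4 ± 46.9 in FBs, and Pcsk5 at 96.3 ± 30.5 in FBs. Of the membrane proteins known to be shed, Cd44 was highest in neutrophils, at 1410.0 ± 667, and App in ECs, at 921 ± 249.8. Among the matrix substrates, the procollagen genes Col3a1, Col1a2 and Col1a1 were at 12807 ± 2742, 10553 ± 1864 and 7946 ± 1527 in FBs.

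PBMCsec and vehicle were then compared within the 5 classes that had at least 10 cells in every library. In FBs 23 members had enough UMIs. edgeR called 0 of them at an adjusted p under 0.05, as it called 0 of 9176 genes (0%), and DESeq2 called 0 members as well. At an unadjusted p under 0.05 there were 4 members, all lower after PBMCsec, where 2.59% of all genes passed in either direction. Of the 23, 7 had a positive and 16 a negative log2 fold change, with a median of -0.17 against 0.01 over all genes. The 2 groups overlapped for every member, while 2.15% of the genes had ranges apart. On simulated counts with the FB libraries' own sizes, this comparison within FBs recovered 100% of 4-fold changes and 29% of 2-fold changes. The simulation gave every gene the same spread between libraries and changed no gene of the lowest levels. These shares therefore do not hold for members with a wider spread, such as Adamts15, whose log2 fold change had a standard error of 0.65.

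Among the 4 was Adamts5, the member with most UMIs. PBMCsec libraries 1 to 4 had 427, 448, 943 and 529.8 CPM, and vehicle libraries 802, 1124, 966 and 889. Only PBMCsec library 3 reached the vehicle range. The log2 fold change of PBMCsec over vehicle was -0.64 ± 0.27 (SE, as for all fold changes here), with an adjusted p of 1 over all genes (edgeR). In the PBMCsec libraries, 71.2, 71.9, 93.4 and 91.1% of FBs held a UMI, and in the vehicle libraries 67.9, 70, 96.5 and 94.8%. These shares were lower in libraries 1 and 2 of both groups than in libraries 3 and 4.

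Adamts15 rested on 2 vehicle libraries. Its CPM was 56.8, 30.7, 36.3 and 98.1 in PBMCsec libraries 1 to 4 and 346, 321, 52.0 and 41.7 in vehicle libraries 1 to 4. Vehicle libraries 1 and 2, which held 28 and 20 FBs, lay above all others, and vehicle libraries 3 and 4 lay within the PBMCsec range. The log2 fold change was -1.53 ± 0.65 (adjusted p = 1, edgeR), and with libraries 3 and 4 alone it was 0.54. Without the cell that held most UMIs of the gene, vehicle libraries 1 and 2 still had 287 and 263 CPM.

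Adamts18 had 13.1, 11.9, 23.4 and 31.5 CPM in the PBMCsec and 0, 37.1, 109 and 53.0 in the vehicle libraries (log2 fold change -1.47 ± 0.53, edgeR adjusted p = 1). Vehicle libraries 3 and 4 were highest and vehicle library 1, with 28 FBs, had 0 UMIs. The Peg3 cluster, where Adamts18 is concentrated, was 5.62, 15.6, 11.3 and 11.1% of FBs in PBMCsec libraries 1 to 4 and 3.57, 15.0, 19.1 and 11.1% in vehicle libraries. The part of this share in the difference was not tested. Adamtsl4 had 45.6, 17.0, 41.3 and 23.6 CPM against 85.3, 43.2, 64.6 and 47.7 (log2 fold change -0.77 ± 0.30, edgeR adjusted p = 1). PBMCsec library 1 alone lay within the vehicle range.

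**Figure D5:**
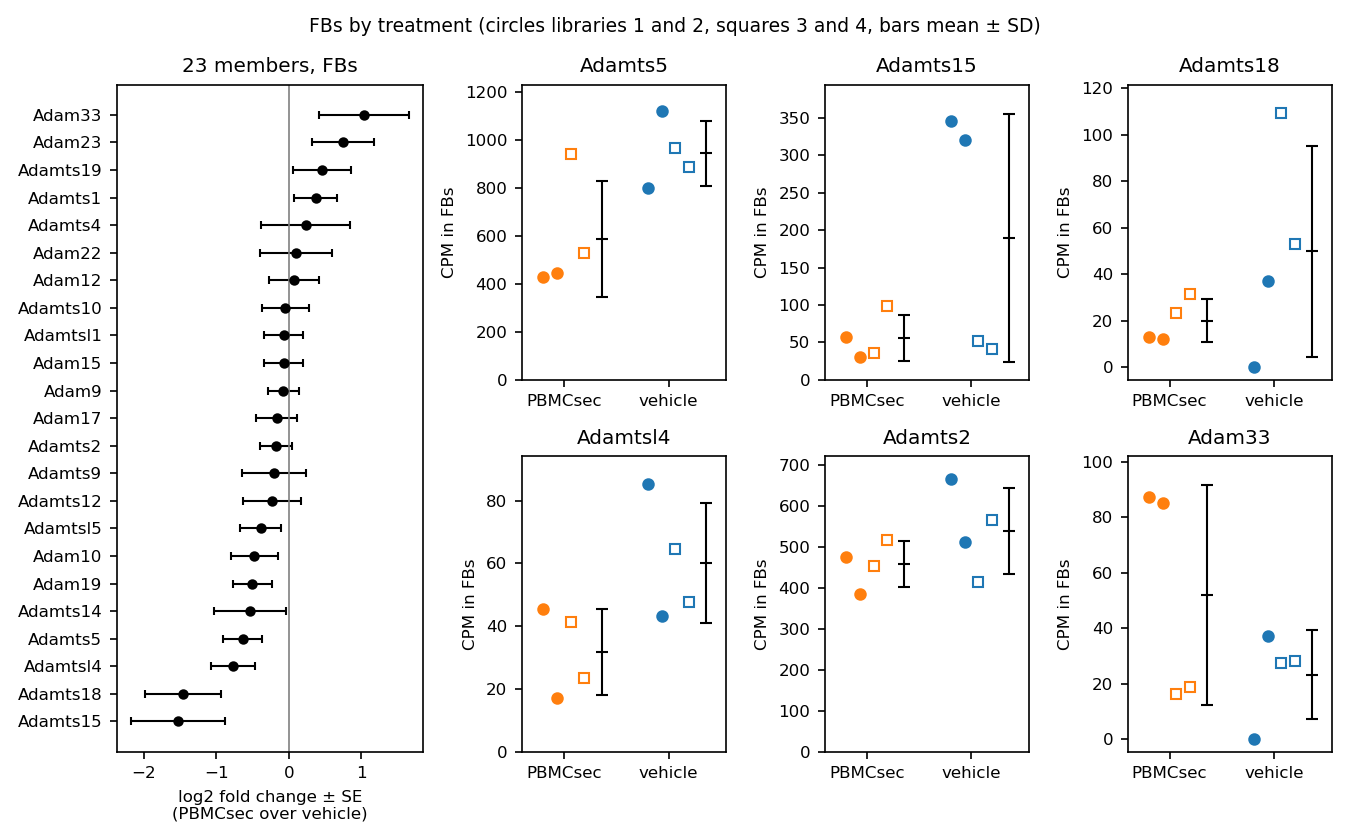
Left, log2 fold change (PBMCsec over vehicle) with its standard error for the 23 members tested in FBs. Right, CPM in FBs per library for 6 members, with libraries 1 and 2 as filled circles, libraries 3 and 4 as open squares and bars for the mean ± SD (n = 4). The groups overlap in each panel, and Adamts15 and Adam33 split by library number within 1 group.

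Members with a positive fold change did not pass the test either. PBMCsec libraries had 87.4, 85.1, 16.3 and 18.6 CPM of Adam33 and vehicle libraries 0, 37.1, 27.6 and 28.0, which gave a log2 fold change of 1.04 ± 0.62 and an edgeR adjusted p of 1. PBMCsec libraries 1 and 2 were high, and libraries 3 and 4 lay below most of the vehicle group. Adamts1 had 364, 162, 284 and 273 CPM against 329, 228, 159 and 179, a log2 fold change of 0.37 ± 0.30 and an edgeR adjusted p of 1. For Adamts2 the values were 476, 385, 452 and 518 and 666, 513, 414 and 564, and -0.17 ± 0.22 on the log2 scale (edgeR adjusted p = 1). The other 16 members lay between -0.53 ± 0.50 for Adamts14 and 0.75 ± 0.43 for Adam23.

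The membrane-bound members of FBs showed similar spreads. Adam10 had 76.1, 35.8, 72.6 and 48.0 CPM in PBMCsec libraries 1 to 4 and 119, 124, 88.3 and 45.5 in vehicle libraries 1 to 4 (log2 fold change -0.48 ± 0.33). Adam17 had 93.0, 57.9, 127 and 90.9 and 158, 49.4, 117 and 108 (log2 fold change -0.17 ± 0.29). Vehicle libraries 1 and 2 were highest for Adam10, while vehicle library 2 was lowest for Adam17. Adam19 had 48.0, 49.4, 64.9 and 55.1 against 137, 80.3, 52.8 and 78.8 CPM (log2 fold change -0.50 ± 0.27), and Adam9, the most even of these, 83.6, 51.1, 74.2 and 75.9 against 85.3, 92.6, 78.0 and 71.2 (log2 fold change -0.08 ± 0.21). The ranges of the groups overlapped for all 4, and edgeR gave each an adjusted p of 1.

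Other secreted members of FBs can be given in the same way. Adamts12 had 66.8, 155, 66.0 and 30.1 CPM after PBMCsec and 128, 49.4, 102 and 87.1 after vehicle (log2 fold change -0.23 ± 0.40). Adamtsl1 had 117, 133, 166 and 200.5 and 218, 80.3, 182 and 185 (log2 fold change -0.07 ± 0.27), and Adamtsl5 36.8, 25.5, 58.5 and 55.8 and 76.8, 30.9, 61.5 and 71.2 (log2 fold change -0.39 ± 0.28). Within each group the libraries of these members differed by more than the group means did.

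Summed over all members, the level in FBs was 2274, 2021, 2681 and 2302 CPM in PBMCsec libraries 1 to 4 and 3452, 3180.3, 2725 and 2721 CPM in vehicle libraries 1 to 4. The lowest vehicle library lay above the highest PBMCsec library, and the means were 2319.9 ± 272 and 3019.8 ± 359.7 (SD, n = 4). Without Adamts5 alone the sums were 1847, 1573, 1738 and 1773 CPM after PBMCsec and 2650, 2056, 1759 and 1832 CPM after vehicle. The groups then overlapped. Without Adamts5 and Adamts15 the sums were 1790.2, 1543, 1702 and 1675 and 2304, 1735, 1707 and 1790.3 CPM, and the groups overlapped as well. No test was made of these sums, since their members were chosen with earlier results known. Summed markers of other cells in FBs overlapped between the groups. T cell markers lay at 361 to 699 CPM after PBMCsec and 486 to 1075 after vehicle, and keratinocyte markers at 177 to 515 and 235 to 573. Erythrocyte markers reached 4006 CPM in 1 PBMCsec library and at most 20.5 CPM after vehicle. Their part in the result was not tested.

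In the other classes fewer members could be tested, with edgeR. It called 0 of 7 in DCs, 0 of 9 in HFs, 0 of 8 in KCs and 0 of 5 in TCs, where 0% of all genes were called. At an unadjusted p under 0.05 there were 0 members in each, against 4.65%, 3.54%, 1.20% and 3.78% of all genes. The ranges of the groups overlapped for each of these members, while they were apart for 2.70% of genes in DCs, 2.67% in HFs, 1.34% in KCs and 2.56% in TCs. Their median log2 fold changes were -0.08, 0.05, -0.10 and -0.25. Adam17 and Adam10 had log2 fold changes of 0.35 ± 0.24 and 0.06 ± 0.27 in DCs, -0.01 ± 0.24 and -0.01 ± 0.25 in KCs, and -0.04 ± 0.30 and -0.25 ± 0.23 in TCs. Neither sheddase passed an unadjusted p under 0.05 in these classes. Adam8 had 153, 170.3, 64.1 and 112 CPM in DCs after PBMCsec and 202, 289, 94.6 and 129 after vehicle (log2 fold change -0.45 ± 0.36, edgeR adjusted p = 1). In TCs it had 33.6, 74.7, 59.7 and 123 and 106, 132, 68.2 and 84.0 (log2 fold change -0.43 ± 0.34, edgeR adjusted p = 0.998), and the ranges overlapped in both.

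In the epithelium, Adamts1 had 212, 154, 75.0 and 35.2 CPM in the KCs of PBMCsec libraries 1 to 4 and 0, 127, 52.6 and 74.0 in those of vehicle libraries (log2 fold change 0.68 ± 0.57, edgeR adjusted p = 1). In HFs it had 146, 77.3, 125 and 42.5 and 115, 129.8, 66.7 and 34.4 (log2 fold change 0.46 ± 0.45, edgeR adjusted p = 1). The ranges overlapped in both classes, and vehicle library 1 held 0 UMIs of Adamts1 in KCs. Adam23 had 61.6, 18.6, 107 and 89.4 CPM in the DCs of PBMCsec and 48.4, 67.9, 101 and 73.5 in those of vehicle libraries (log2 fold change -0.08 ± 0.39, edgeR adjusted p = 1).

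The difference of the treatment effect between each class and FBs was tested in one fit over all 5 classes. edgeR called 0 of 23 members in DCs, HFs, KCs and TCs (0% of 10609 genes in each). At an unadjusted p under 0.05 there was 1 member in HFs, Adamts18 (2.78 ± 1.14), and there were 2 in TCs, Adam33 (-5.36 ± 2.35) and Adamts14 (2.53 ± 1.01), each with an adjusted p of 1. These members were close to 0 in the class named, with means of 2.98 CPM of Adamts18 in HFs and 1.16 and 6.57 of Adam33 and Adamts14 in TCs. Without a filter on low counts 1 of 41 members, Adamts18, was called in HFs, where 0.678% of 20221 genes were.

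Partner genes gave the same counts of calls. In FBs 0 of 21 tested genes among 29 matrix substrates and partners were called, and 4 passed an unadjusted p under 0.05 (2.59% of all genes). Fn1 (fibronectin) was among them, with 5696, 1785, 6249 and 5386 CPM after PBMCsec and 12071, 10486, 6731 and 6226 after vehicle (log2 fold change -0.84 ± 0.36, edgeR adjusted p = 1). PBMCsec library 2 was lowest, and PBMCsec library 3 alone lay within the vehicle range. Postn and Loxl2 had negative values as well, -0.49 ± 0.22 and -0.71 ± 0.31, and Fbln1, a cofactor of ADAMTS1, a positive one, 1.07 ± 0.46. Of 4 inhibitors tested 2 had positive values, 0.06 ± 0.27 for Timp2 and 0.04 ± 0.21 for Timp3. The other 2 had negative values, -1.61 ± 0.80 for Timp1 and -0.10 ± 0.25 for Reck. None of the 4 passed an unadjusted p under 0.05. In DCs, HFs, KCs and TCs 0 partner genes were called (0% of all genes). At an unadjusted p under 0.05, Thbs1 (2.27 ± 0.71), Tspan14, Pcsk7 and Timp2 were higher in DCs after PBMCsec. Comp (-1.65 ± 0.39) and Cdh1 (-1.17 ± 0.33) were lower there, where 4.65% of all genes passed. Those passing were Areg, Cxcl16 and Ltbp2 in HFs (3.54% of all genes), Jag2 and Fbln1 in KCs (1.20%), and Pcsk1 and Notch2 in TCs (3.78%).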

How the data were processed

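Single-cell libraries (8, 10x Genomics) of mouse dorsal skin were used. The authors aligned the reads to mm10 and deposited raw UMI counts per gene and barcode, with Cell Ranger 3.0.2 named in the submitters' processing notes and another version in the study's methods. Libraries were grouped by the treatment in the labels. Cells were filtered as in the study, 3 noise genes the study excluded (Gm42418, Gm17056 and Gm26917, 0.264% to 7.51% of kept UMIs per library) were left out, and libraries were integrated and clustered with Seurat 5.3.0 (2000 variable features without the members, 30 dimensions, resolution 1). Scrublet (scanpy 1.11.5) called 25 cells (0.407%), too few to rely on, so that no cell was removed as a doublet in the main analysis and the top 5% of scores were removed in an alternative. A cluster was named where at least 3 markers of its class were detected and its leading genes did not go against the name.

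Counts were summed per library and class (at least 10 cells in the main analysis). PBMCsec and vehicle were compared within each class by edgeR 4.0.16's quasi-likelihood test with TMM scaling, over all genes past edgeR's filter on low counts and with Benjamini-Hochberg adjustment. Classes were compared in the same way, with library as a block, over classes with at least 4 libraries, and the difference of the treatment effect was tested as an interaction. Library numbers are shared between the groups. The deviations of same-numbered libraries from their group means correlated at 0.13 to 0.41 in all 4 pairs in TCs, and at 0.1 or less in at least 1 pair in FBs, DCs, HFs and KCs, so that the number was taken to pair libraries in TCs alone, from the data and not from the labels. A fit with this replicate block and DESeq2 1.42.0 were alternatives. CPM were computed without a pseudocount. Members with a mean of at least 20 CPM in a class entering the test of treatment, or called higher with at least 20 CPM in another class, were named, together with the most abundant genes of each partner list. Other partner genes were added after their values were seen, as were Adamts3, Adamts14, Adamts20 and the test of each pair of classes. A gene of the partner lists is not reported here. The members and lists were chosen with earlier results of these data known. Figures were drawn with matplotlib 3.10.9. The tests were checked on simulated counts, of which the share of changed genes recovered is given for FBs. The UMIs of a gene in a class and library set the counting error behind its value. Intervals and floors cover that error only, since cells of a library share their source.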

Additional observations from a re-analysis of the deposited data

Results flagged for a closer look

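Of 80 groups of 4 libraries, 6 had a highest or lowest library far from its 3 neighbours, and chance alone gives about 1 in 20 groups. In FBs, PBMCsec library 2 (64 FBs) was highest for Adam12 at 111 CPM, where the other PBMCsec libraries had 39.4 to 51.2. The same library was highest for Adam23 at 69.8 CPM (others 18.8 to 26.2) and for Adamts10 at 46.0 CPM (others 25.9 to 28.1). Adamts4 was highest in the FBs of vehicle library 2, at 129.7 CPM against 10.2 to 25.6, and without 1 cell that held 20 of 21 UMIs this library had 6.97 CPM. In DCs, Adam19 was lowest in PBMCsec library 2, at 34.1 CPM against 44.7 to 46.6. In KCs, Adam8 was highest in vehicle library 2, at 158 CPM against 41.1 to 44.4. Mast cell markers summed to 1446 CPM in the KCs of that library and to at most 4.02 CPM in those of the others, and their part in the value was not tested.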

How the results depend on the processing

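The count of members called between PBMCsec and vehicle was 0 in every class under each alternative that gave a value. Under the alternatives, 545 values of a member's log2 fold change kept their direction and 78 turned, none of them past the threshold. The cause was not tested.

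The median over members moved in DCs to -0.28 with libraries 1 and 2 alone, to 0.13 with libraries 3 and 4 alone and to -0.62 with mitochondrial UMIs limited to 2.5%, and between -0.18 and 0.13 when 1 library was left out. In FBs it was -0.38 with libraries 1 and 2 and 0.016 with libraries 3 and 4, in KCs 0.067 with libraries 1 and 2, and in TCs 0.23 with libraries 3 and 4. With mitochondrial UMIs limited to 2.5%, 8 members were left to compare between classes, of which 5 were called higher in FBs (34% of 3615 genes), 3 in ECs (8.30%), 2 in DCs (30.5%), 2 in KCs (27.3%), 1 in HFs (28.5%) and 1 in TCs (27.7%), and 0 members were left to test between treatments in HFs, KCs and TCs. That limit kept 1085 of 6150 cells. Without a filter on low counts 7 of 41 members were called higher in HFs (26% of 20339 genes), and 1 of 41 was called for a treatment effect that differed between HFs and FBs (0.678% of 20221 genes).

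Values turned with libraries 1 and 2 alone to -1.45 for Adamts4, 0.31 for Adamts12, -0.036 for Adamts1 and 1.52 for Adamts10 in FBs, -0.00588 for Adam10 and -0.0018 for Adamts1 in HFs, 0.049 for Adam10 and 0.086 for Adam17 in KCs, and 0.038 for Adam10 in TCs. With libraries 3 and 4 alone they turned to 0.54 for Adamts15, -0.60 for Adam33, -0.48 for Adam12, 0.059 for Adam15, 0.082 for Adamtsl1, 0.092 for Adam9, 0.073 for Adamts2 and 0.053 for Adam17 in FBs. In the same libraries they turned to 0.13 for Adam23, 0.21 for Adam15 and 0.10 for Adam19 in DCs, -0.43 for Adamts9 and -2.99e-05 for Adam10 in HFs, 0.076 for Adam8 and -0.17 for Adamts1 in KCs, and 0.24 for Adam8 and 0.23 for Adam17 in TCs. DESeq2 gave -0.35 for Adamts4 and 0.045 for Adamts10 in FBs, the fit without a filter 0.044 for Adam17 in TCs, and removal of the highest doublet scores 0.012 for Adam15 in DCs.

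Leaving out 1 library at a time gave values on both sides of 0 for these members. In FBs the lowest and highest were -0.43 and 1.12 for Adamts4, -0.70 and 0.044 for Adamts12, -0.32 and 0.27 for Adam12, -0.33 and 0.12 for Adam15, -0.16 and 0.041 for Adam9, -0.23 and 0.16 for Adamts10, and -0.24 and 0.049 for Adamtsl1. In DCs they were -0.047 and 0.18 for Adam10, -0.30 and 0.17 for Adam15, -0.39 and 0.054 for Adam19, and -0.35 and 0.20 for Adam23. In HFs they were -0.10 and 0.17 for Adam10 and -0.27 and 0.82 for Adamts9. In KCs they were -0.095 and 0.080 for Adam10, -0.084 and 0.12 for Adam15, -0.11 and 0.074 for Adam17, and -0.44 and 0.61 for Adam8, and in TCs -0.19 and 0.25 for Adam17. The 4 members with an unadjusted p under 0.05 in FBs stayed negative, with -0.94 to -0.51 for Adamts5, -1.96 to -0.88 for Adamts15, -1.74 to -0.74 for Adamts18 and -0.96 to -0.61 for Adamtsl4. These 4 were picked by their values in the same libraries, so that a kept direction is no separate check.

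Groups share library numbers in the labels. By the cut-off of 0.1 on the correlations, the numbers were taken to pair libraries in TCs alone, although all classes come from the same libraries. Whether the libraries are paired is not settled by this, and the values given above for TCs come from the fit without a replicate block. With a replicate block 0 members were called in each of the 5 classes, the medians were 0.01 in DCs, -0.13 in FBs, 0.07 in HFs, -0.07 in KCs and -0.22 in TCs, and the block changed no call. Of the values, 4 turned, to 0.011 for Adam23 in DCs, -0.12 for Adam12 in FBs, -0.16 for Adamts9 in HFs and 0.021 for Adam8 in KCs.

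Depth limits the small classes, and the 28 and 20 FBs of vehicle libraries 1 and 2 limit each value there. Thinning to 1000 UMIs moved 103 shares of cells with a UMI beyond their interval and left 44 within it. Since thinning lowers such shares by its design, these counts do not show whether the order of classes holds.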

Other observations

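Some clusters outside the tested classes held members at high levels, given as pooled CPM without a test. The PC cluster, led by Rgs5 and Myh11 (38 cells), had 1089 CPM of Adamts1 (217 UMIs), 371 of Adamts4 (74 UMIs) and 336 of Adamts12 (67 UMIs). Of its libraries, 1 held at least 10 of these cells. ECs fell into a cluster with Lyve1, Flt4 and Prox1, markers of lymphatic vessels (49 cells), and one with Plvap and Flt1, markers of blood vessels (34 cells). Adam10 and Adamtsl1 had 595 and 278 CPM in the lymphatic and 264 and 18.5 in the blood vessel cluster, and Adamts9, Adam15 and Adamts1 23.9, 12 and 38.9 in the lymphatic and 329, 236 and 250.4 in the blood vessel cluster.

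Adamts20, known from pigment cell and palate development, fell under the level required of named members and was singled out after its values were seen. It had 11.5 ± 8.01 CPM in HFs (SD, n = 8), and within HFs 69.2 CPM in the cluster with Lgr5 and Sfrp1, markers of follicle stem and germ cells. Adamts9 in HFs was at 51.5 CPM in the cluster led by Sostdc1 and 51.4 in the cluster led by the inner root sheath keratins Krt71 and Krt25.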
